A study of Mus musculus with 8 samples.

Results

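The level of mmu-miR-21, a miRNA that liver expresses at a high level and that has been linked to fibrosis in several organs, was followed over 8 single-colour arrays of mouse liver RNA. It was chosen by its name on the array, and it is 1 of 567 mouse miRNAs measured there. The mice were 8-week-old male C57BL/6J mice. They received CCL4 in olive oil by intraperitoneal injection, a treatment that injures the liver and leaves it fibrotic, or olive oil alone. Injections were given 2 times a week in the first 4 weeks and weekly in the next 4. Livers were taken at 4, 6 or 8 weeks. There was 1 array of CCL4 mice for the livers taken at 4 weeks, 2 for each of the later times, and 1 array of olive oil mice for each time. All groups carried no genetic change that the labels name, and the controls shared the vehicle and the injections with the CCL4 mice. Whether an array carried the RNA of 1 mouse or of a pool is not given in the sources used here, so n counts arrays, and p-values measure the spread between arrays. On the CCL4 array of 4 weeks 158 miRNAs were detected, against 117 to 145 on the other 7, and it also stood apart in several measures of mmu-miR-21, which are given with and without it.

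A miRNA is cut from a hairpin precursor, and its guide strand is loaded into an Argonaute protein, where bases 2 to 8, the seed, pair with target mRNAs and lower their translation and stability. miR-21 is made in many cell types, among them hepatocytes, leukocytes and activated stellate cells, the collagen-producing cells of the injured liver. Its best known targets include Pdcd4 and Smad7, and the loss of Smad7, an inhibitor of TGF-beta signalling, is a reason often given for calling it profibrotic.

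The array's mmu-miR-21 is the guide strand that RefSeq (GRCm38.p6) lists as mmu-miR-21a-5p, and the array's mmu-miR-21* is the passenger strand, mmu-miR-21a-3p. The sequences are shown because the guide and passenger strands of 1 hairpin gave very different signals, with the seed in capitals. mmu-miR-21c, which has no probe under that name on the array, is shown because it holds the same seed.
mmu-miR-21a-5p: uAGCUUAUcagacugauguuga
mmu-miR-21a-3p: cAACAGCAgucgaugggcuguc
mmu-miR-21c: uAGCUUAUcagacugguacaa
The guide strand lies at chr11:86584120-86584141 and the passenger strand at chr11:86584082-86584103, both on the minus strand. The hairpin at chr11:86584067-86584158 falls inside the span of the gene Vmp1, chr11:86583858-86683836, in a table that gives gene spans without exons.

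mmu-miR-21 was read by 2 probes of 10 spots each, and all 160 spots over the 8 arrays were well above background. Probe A_54_P1307 covers chr11:86397622-86397641 and probe A_54_P1308 covers chr11:86397622-86397640 in the array's own annotation (mm9), so they differ by 1 base at an end. The coefficient of variation among the 10 spots of a probe was between 2.27% and 11.4%. None of the 160 spots was saturated, 7 were marked as outliers among their repeats, and the local background was between 21.3 and 26.0 units against spot signals of 1708 to 19100. The spots of an array are technical repeats, and their spread says nothing about differences between mice.

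Both probes placed the CCL4 array of 4 weeks highest and the olive oil array of 6 weeks lowest. The mean spot signal of A_54_P1307 with CCL4 exceeded that with olive oil 1.77-fold at 4 weeks, while at 6 and 8 weeks the excess was 1.24-fold and 1.39-fold, before any scaling. That of A_54_P1308 was 2.14-fold, 1.26-fold and 1.39-fold higher in the same order of weeks. The probes therefore gave nearly equal ratios at 6 and 8 weeks and unequal ones at 4 weeks. The ratio of A_54_P1307 to A_54_P1308 was 3.15 on the CCL4 array of 4 weeks, and the other 7 arrays lay between 3.82 and 3.99.

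The total signal of mmu-miR-21, summed over its probes by the scanner software, was 16858 in the CCL4 liver RNA of 4 weeks, 7411 and 10773 in that of 6 weeks, and 15397 and 12545 in that of 8 weeks. With olive oil alone it was 8509, 7071 and 9627, in the order of the weeks. Each array of a CCL4 liver exceeded its control of the same week, but the groups overlapped, since the first CCL4 array of 6 weeks was below the olive oil arrays of 4 and 8 weeks. The mean was 12597 ± 3749 (SD, n = 5) with CCL4 and 8402 ± 1281 (SD, n = 3) with olive oil. The difference in mean log2 signal was 0.54 (exact permutation test over 56 splits, two-sided, p = 0.143), and the smallest p this design can give is 0.0357. Without the CCL4 array of 4 weeks the difference was 0.42 (exact permutation test, two-sided, p = 0.229). In whole liver, more cells that make mmu-miR-21 and more mmu-miR-21 per cell cannot be told apart. The other signals also differed between the arrays. The summed signal of the detected miRNAs ranged from 63406 to 136802 with CCL4 and from 75078 to 97188 with olive oil. The software estimated the effective size of a spot from the image on 3 CCL4 arrays, giving fractions of 0.646 (4 weeks), 0.618 (the second of 6 weeks) and 0.651 (the first of 8 weeks), and used a default of 0.6 on the other 5 arrays, all olive oil arrays among them. This factor multiplies total signals between arrays and cancels within an array.

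The study's methods name division by a 75th percentile within a species, without stating if each array had its own. Here each array was divided by its own percentile over all 567 mouse miRNAs, a reading on which the direction below depends. It was 6.53 to 11.0 with CCL4 and 4.71 to 6.48 with olive oil, with no overlap, and so it lay close to the lowest signals called detected, which were 5.59 to 8.16 except for 0.139 in CCL4 at 4 weeks. The scaled log2 level of mmu-miR-21 was 10.79 in CCL4 at 4 weeks, 10.15 and 10.48 in CCL4 at 6 weeks, and 10.45 and 10.50 in CCL4 at 8 weeks. In the controls it was 10.70, 10.55 and 10.54. After scaling the groups overlapped, and all 4 CCL4 arrays of 6 and 8 weeks were below the 3 olive oil arrays. With week as a factor, CCL4 minus olive oil gave a log2 difference of -0.08 with a standard error of 0.15 and a 95% confidence interval of -0.42 to 0.25 (limma, adjusted p = 0.635 over 133 miRNAs). On the linear scale this interval runs from 0.747 to 1.19 times the olive oil level. At single weeks the scaled log2 difference was 0.09 at 4 weeks, then -0.24 and -0.06 at 6 and 8 weeks (limma, adjusted p = 0.823, 0.474 and 0.951). In that fit limma called 12% of the 133 miRNAs higher and 33.1% lower at 4 weeks, 6.02% and 3.01% at 6 weeks, and 6.02% and 0.752% at 8 weeks. A difference between the weeks was not detected either (limma interaction of treatment and week, adjusted p = 0.882), a test that 6.02% of the miRNAs passed. Groups of 1 array were assumed in these fits to vary like the CCL4 pairs of 6 and 8 weeks.

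The direction of the difference over all weeks depended on how the arrays were made comparable. Under 10 ways of scaling, the log2 difference of mmu-miR-21 over all weeks was above 0 in 7 and below 0 in 3, from -0.08 to 0.58, and limma called it in none of them at an adjusted p of 0.05, with 4 of the 10 under 0.05 before adjustment. Of these, scaling by 5 control features, by the mean log2 signal and by cyclic loess was chosen after the data were seen. Those gave 0.35, 0.14 and 0.57, all above 0. The deposited processed table, which is unscaled and holds signals under 1 as 1, gave the same 0.58 and a call (limma, adjusted p = 0.0429). Without scaling it was 0.58 (limma, adjusted p = 0.0690), and with a 75th percentile taken over only the 113 miRNAs that every array detected it was 0.12 (adjusted p = 0.466), a scale on which 15% of the 133 miRNAs were called higher and 6.02% lower. At 4 weeks the difference was above 0 under all 10, from 0.09 to 1.22, and was called higher under 4 of them. These called 16 to 30 of the 133 miRNAs higher, and they include the mean log2 signal and cyclic loess. At 6 weeks it was above 0 in 6, below 0 in 3 and at 0 in 1, and at 8 weeks these counts were 5, 4 and 1. The sum of spot signals called it lower at 6 weeks (-0.47, limma, adjusted p = 0.00664). That fit called 83 of the 133 miRNAs lower and 8 higher, and their median was lower still, at -0.61. At 8 weeks none of the 10 called mmu-miR-21 in either direction, with 1 under 0.05 before adjustment. Dividing an array by a single number shifts the log2 levels of all its miRNAs alike, apart from floored values. The choice of that number therefore moved the median log2 difference of the 133 tested miRNAs too, from -0.32 at the 75th percentile to 0.35 without scaling. The difference of mmu-miR-21 lay above this median under both, at the 42nd highest place of 133. Such a division fixes that agreement in advance, so it is no sign of stability. Quantile normalization, normexp and cyclic loess act by intensity and do not shift all miRNAs alike. Under these mmu-miR-21 was at 0.11, 0.49 and 0.57 over all weeks, and the median at -0.06, 0.06 and -0.03. Quantile normalization sets a level by its rank on the array alone. mmu-miR-21 ranked 3rd on 7 arrays and 2nd on the CCL4 array of 4 weeks. This 1 change of rank fixes its values under quantile normalization, 0.39 at 4 weeks and 0 at 6 and 8 weeks, so they add nothing to the rank.

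**Figure D1:**
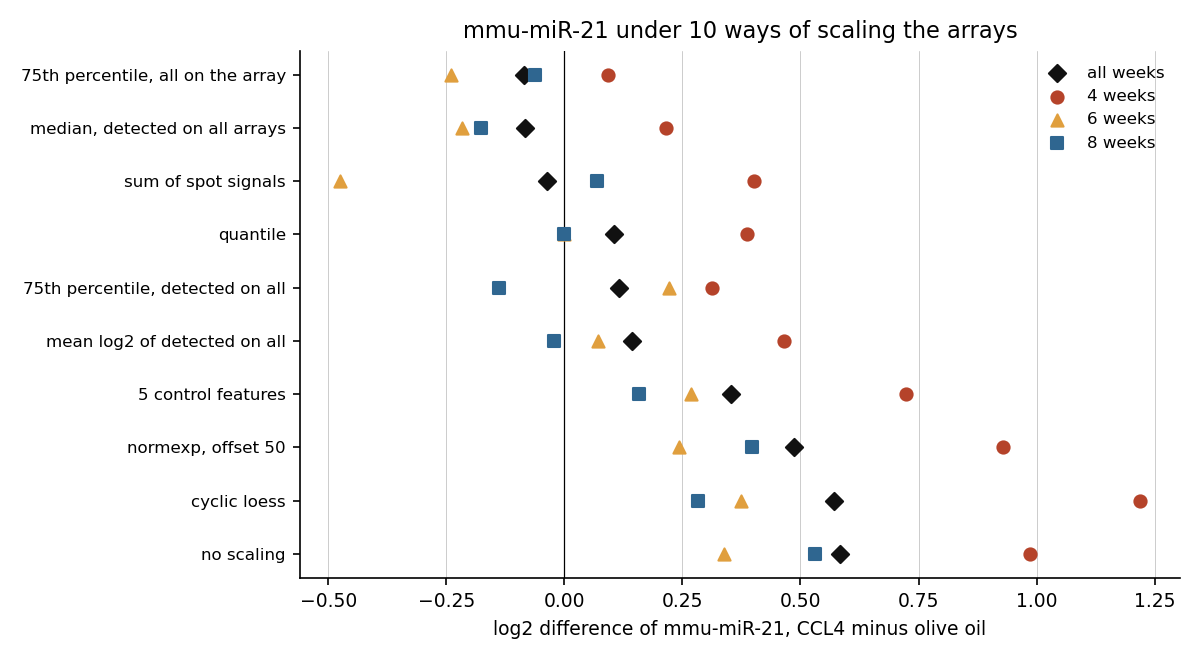
Each row is a way of scaling the arrays, and the points give the log2 difference of mmu-miR-21 between CCL4 and olive oil over all weeks (diamonds) and at 4, 6 and 8 weeks, without error bars. The rows of 5 control features, the mean log2 signal and cyclic loess were chosen after the data were seen. The points of 4 weeks lie to the right of 0 in all 10 rows, and those of all weeks run from -0.08 to 0.58; at 6 and 8 weeks quantile normalization gives 0, so these points coincide.

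Measures taken within an array need no scaling. mmu-miR-21 ranked 3rd by signal among the 567 mouse miRNAs on 7 arrays, and 2nd on the CCL4 array of 4 weeks. Ranks compare the signals of different probes, which need not respond alike, and not amounts of RNA. The mean rank was 2.8 with CCL4 and 3.0 with olive oil (exact permutation test, two-sided, p = 1). mmu-miR-122, the most abundant miRNA of hepatocytes, was 1st on all 8 arrays. mmu-miR-720, an entry that was later reclassified as a fragment of a transfer RNA, was 2nd on 7 arrays and 3rd on the CCL4 array of 4 weeks, where its signal was 8839 against 16858 for mmu-miR-21. Next in mean rank were mmu-miR-451, which is specific to red blood cells, and mmu-miR-22, a widely expressed miRNA, both at 4.63. The signal of mmu-miR-21 was between 1.46 and 2.80 times that of the next miRNA below it on the same array.

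The share of mmu-miR-21 in an array's signal was larger on every CCL4 array than on any olive oil array. Its share of the summed signal of the detected mouse miRNAs was 19.2% in CCL4 at 4 weeks, 11.7% and 12.1% in CCL4 at 6 weeks, and 11.3% and 11.2% in CCL4 at 8 weeks. With olive oil the weeks gave 10.1%, 9.42% and 9.91%. The mean share was 13.1% ± 3.43 (SD, n = 5) with CCL4 and 9.81% ± 0.359 (SD, n = 3) with olive oil, a difference of 3.26 percentage points (exact permutation test, two-sided, p = 0.0357, the smallest possible, and 0.0714 after adjustment over the 4 measures compared). The comparison therefore missed 0.05 after adjustment. Of the 133 tested miRNAs, 44 (33.1%) had a share that was higher on every CCL4 array than on every olive oil array, so groups that do not overlap were common on these arrays. Among the 20 miRNAs with the highest mean ranks, 2 did so, mmu-miR-21 and mmu-miR-130a, and mmu-miR-122 alone had a share that was lower on every CCL4 array.

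The CCL4 array of 4 weeks stood apart in this measure, at 19.2% against 11.2% to 12.1% on the other 4 CCL4 arrays. Relative to the control of its own week, the mean CCL4 share of mmu-miR-21 was 1.90-fold at 4 weeks, 1.26-fold at 6 weeks and 1.13-fold by 8 weeks. With the array of 4 weeks left out, the difference in share fell from 3.26 to 1.74 percentage points (exact permutation test, two-sided, p = 0.0571, the smallest that 4 against 3 arrays can give), and the remaining 4 CCL4 arrays were still above all 3 olive oil arrays. With mmu-miR-122 removed from the sum, the share was 15.1% to 24.6% with CCL4 and 13.9% to 14.5% with olive oil, again without overlap.

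The ratio of mmu-miR-21 to mmu-miR-122 on the same array compares a miRNA of many cell types with that of hepatocytes. It was 0.869 in CCL4 at 4 weeks, 0.401 and 0.420 in CCL4 at 6 weeks, and 0.439 and 0.407 in CCL4 at 8 weeks. With olive oil the weeks gave 0.335, 0.292 and 0.321. All 5 CCL4 arrays were above all 3 olive oil arrays, and the CCL4 array of 4 weeks was again far above the rest. The mean log2 ratio was higher by 0.61 with CCL4 (exact permutation test, two-sided, p = 0.0357, and 0.0714 after adjustment over 4 measures), and by 0.40 without the array of 4 weeks (p = 0.0571, exact permutation test). This pattern was not particular to mmu-miR-21. Of the 132 tested miRNAs other than mmu-miR-122, 84 (63.6%) had a ratio to it that was higher on every CCL4 array than on every olive oil array.

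A ratio shows unequal change and not which of its members changed. The signal of mmu-miR-122 was 19389 in CCL4 at 4 weeks, 18497 and 25638 in CCL4 at 6 weeks, and 35101 and 30800 in CCL4 at 8 weeks, against 25371, 24201 and 30018 in the controls. Its groups overlapped before scaling. In unscaled signal, CCL4 minus olive oil at 4 weeks gave a log2 difference of 0.99 for mmu-miR-21 and -0.39 for mmu-miR-122. At 6 weeks these differences were 0.34 and -0.15, and at 8 weeks 0.53 and 0.13. After scaling to the 75th percentile, mmu-miR-122 was lower over all weeks by a log2 of -0.78 (limma, adjusted p = 0.0118), and without scaling its difference was -0.11.

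**Figure D2:**
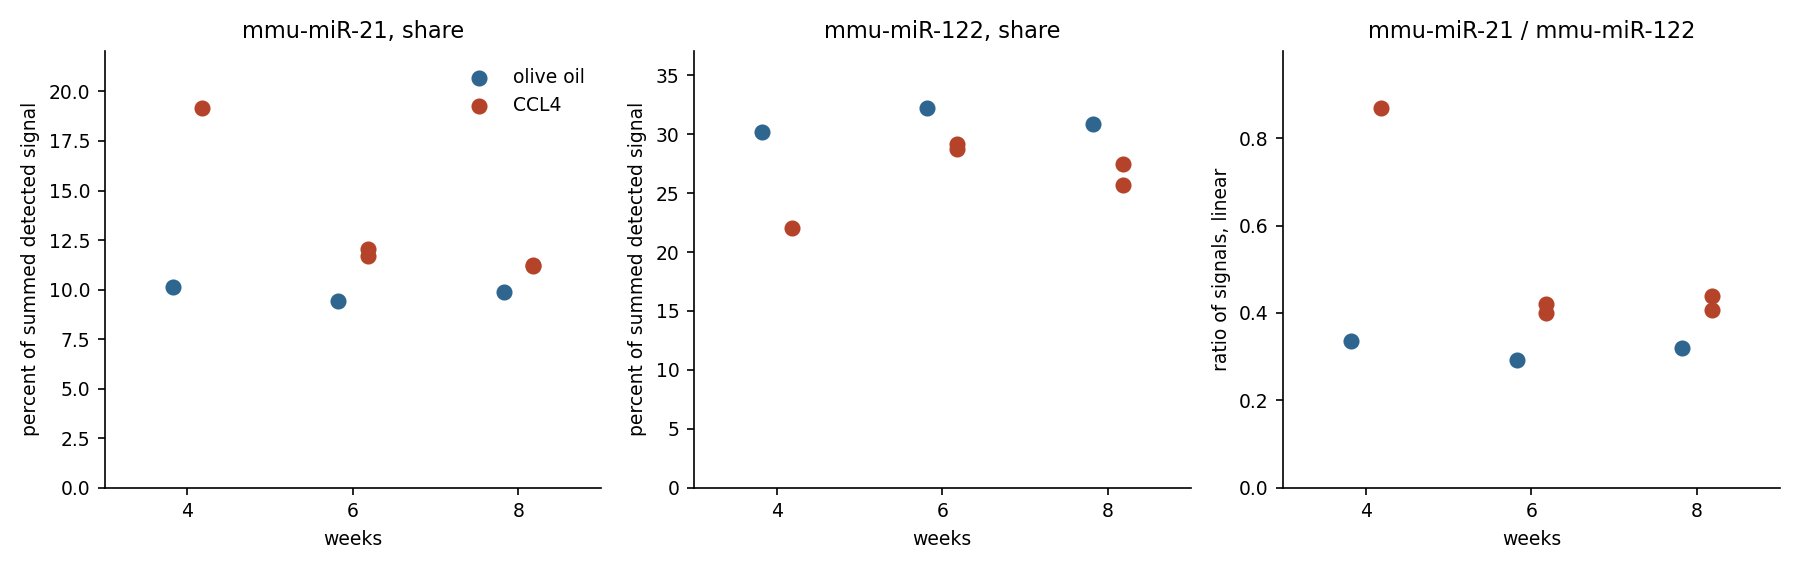
The panels plot, by week and treatment, the share of mmu-miR-21 and of mmu-miR-122 in the summed detected signal of each array in percent, and the ratio of their signals, with a point for each array and axes from 0. mmu-miR-21 and the ratio are higher, and mmu-miR-122 is lower, on all 5 CCL4 arrays than on the 3 olive oil arrays, with the CCL4 array of 4 weeks farthest away at 19.2%, 22.1% and 0.869.

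Among the 20 miRNAs with the highest mean ranks, mmu-miR-21 had the highest log2 difference over all weeks, above the other 19, an order that dividing an array by a single number leaves as it is. On the 75th percentile scale the median log2 difference of these 20 was -0.59, and 16 of them were called lower and none higher, against 35.3% called lower and 13.5% called higher among all 133 tested. For mmu-miR-21 the difference was -0.08. The number called lower depends on the scale. With the percentile over the miRNAs that every array detected, 6.02% of the 133 were called lower, and without scaling none was. In the whole set of 133 tested miRNAs, 91 had a lower log2 difference than mmu-miR-21 and 41 a higher one, all of them outside the 20 brightest. The nearest of the bright miRNAs was mmu-miR-130a at -0.17 (limma, adjusted p = 0.471).

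The ratio of mmu-miR-21 to each of these 19 miRNAs was compared within arrays. It was higher on every CCL4 array than on every olive oil array for 8 of them: mmu-miR-122, mmu-miR-720, mmu-miR-22, mmu-miR-192, mmu-let-7f, mmu-let-7a, mmu-miR-148a and mmu-miR-29c. For none of the 19 was it lower on every CCL4 array. At 4 weeks the ratio was higher with CCL4 for 19 of 19, by 1.61-fold to 3.16-fold with a median of 2.12. At 6 weeks it was higher for 18 of 19, with a median of 1.29-fold, and at 8 weeks for 17 of 19, with a median of 1.14-fold. The exceptions were mmu-miR-130a at 6 and 8 weeks and mmu-miR-451 at 8 weeks. The median thus went from 2.12 at 4 weeks to 1.14 at 8 weeks, with 1 olive oil array behind each value and no test of the trend. The arrays of 4 weeks lay in row 1 of the slide and those of 8 weeks in row 2. Week and row cannot be told apart between these times. The ratio to mmu-miR-22 was 5.24 in CCL4 at 4 weeks, 2.55 to 2.80 in the other CCL4 livers and 1.82 to 2.48 with olive oil. The ratio to mmu-miR-451 overlapped between the groups, at 1.57 to 4.01 with CCL4 and 1.46 to 2.95 with olive oil. Over all 112 other miRNAs detected on every array, the ratio was higher on every CCL4 array for 20 and lower on every CCL4 array for 12.

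**Figure D3:**
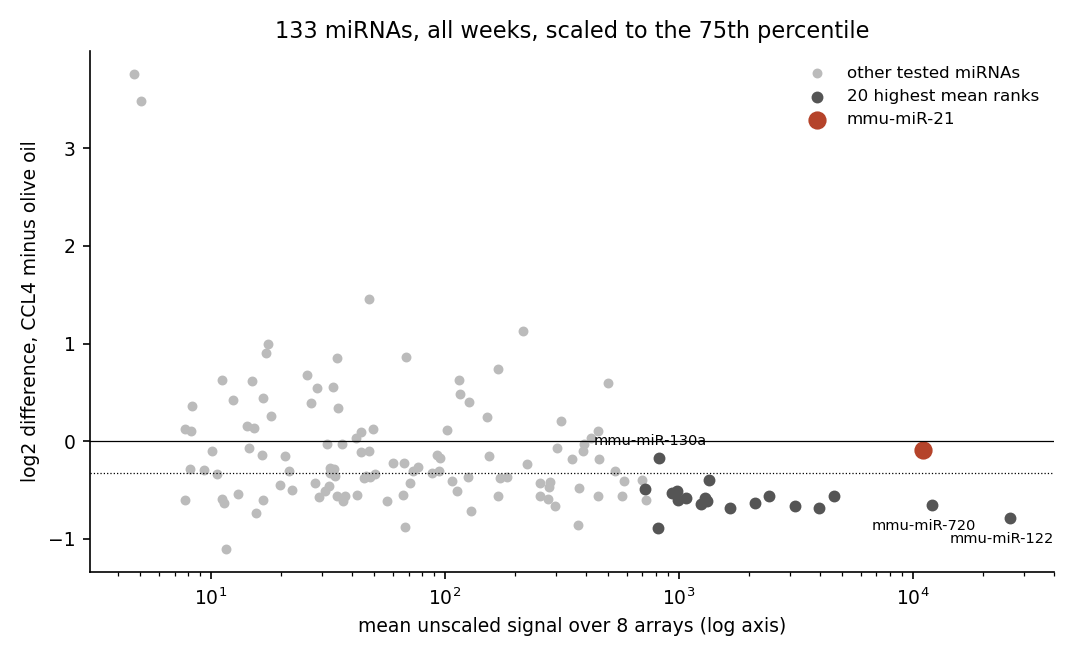
Each point is 1 of 133 tested miRNAs, with its mean unscaled signal over the 8 arrays on a log axis and its log2 difference between CCL4 and olive oil over all weeks on the 75th percentile scale, and the dotted line is the median of all at -0.32. mmu-miR-21 at -0.08 lies above the other 19 miRNAs of the 20 with the highest mean ranks, while many dimmer miRNAs lie above it.

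The passenger strand was near the limit of the array. mmu-miR-21* was detected only in CCL4 at 4 weeks, with a signal of 8.65. On the 7 other arrays its signal was 2.18 to 2.63 with CCL4 and -2.51 to -0.58 with olive oil, all not detected, so no fold change is given. The 3 olive oil arrays were below the 5 CCL4 arrays, but values under detection are not ordered. mmu-miR-590-5p, a less abundant member of the same seed family, was not detected on any array. Neither of them could be tested, since a miRNA entered the fit when it was detected on at least 3 arrays.

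The miRNAs of hepatocytes were mostly called lower on the scale of the 75th percentile. Over all weeks limma called 18 (13.5%) of the 133 tested miRNAs higher and 47 (35.3%) lower. All 10 hepatocyte miRNAs were detected on every array, and 8 were called lower and 1 higher, with a median log2 difference of -0.60. The brightest were mmu-miR-122 and mmu-miR-192, which hepatocytes make under HNF factors, and mmu-miR-192 had a log2 difference of -0.66 (limma, adjusted p = 0.0219). mmu-miR-194, mmu-miR-148a, mmu-miR-101a, mmu-miR-101b, mmu-miR-193 and mmu-miR-365 were the others called lower, and mmu-miR-802 was called higher at 0.68 (adjusted p = 0.0232). With the percentile over the miRNAs that every array detected 3 of the 8 were called lower, and without scaling the median of the list was 0.07. The summed share of these miRNAs was 27.2% in CCL4 at 4 weeks, 32.1% to 36.0% in the other CCL4 livers and 36.6% to 39.4% with olive oil. It was lowest where the share of mmu-miR-21 was highest. Both are parts of the same sum, so a larger share of mmu-miR-21 by itself lowers the other shares.

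The summed share of the leukocyte miRNAs was highest on the CCL4 array of 4 weeks, where its members did not move together. It was 1.68% in CCL4 at 4 weeks, 0.567% to 0.712% in the other CCL4 livers and 0.499% to 0.708% with olive oil. mmu-miR-155, which activated immune cells induce, was detected on that array alone, and mmu-miR-150, a miRNA of mature lymphocytes, was not detected on any array. Of 5 tested members, mmu-miR-146a was called lower over all weeks at -0.87 (limma, adjusted p = 0.0118) and none higher. The brightest members, mmu-miR-142-3p and mmu-miR-223, differed by -0.03 and 0.25 over all weeks (limma, adjusted p = 0.863 and 0.379). At 4 weeks mmu-miR-223, a miRNA of myeloid cells, was called higher at 1.14 and mmu-miR-146a lower at -0.88 (limma, adjusted p = 0.00335 and 0.0204), and the values of mmu-miR-142-3p, mmu-miR-142-5p and mmu-miR-342-3p were 0.36, -0.12 and 0.17 (adjusted p = 0.355, 0.765 and 0.700). The size and sign of such differences depend on the scale. At 4 weeks the median log2 difference of the 133 tested miRNAs was -0.50 on this scale. Without scaling it was 0.39. Over all weeks mmu-miR-146a was also lower with the percentile over the miRNAs that every array detected, at -0.67 (limma, adjusted p = 0.0279). Without scaling no miRNA was called lower over all weeks. The part of leukocytes in the level of mmu-miR-21 was not tested.

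The summed share of the mesenchymal miRNAs was higher on every CCL4 array than on any olive oil array. It was 0.662% to 0.979% with CCL4 and 0.385% to 0.466% with olive oil, where 33.1% of single miRNAs had a share without overlap in this direction. Of 6 tested members 4 were called higher, against 13.5% of all tested miRNAs, with a median log2 difference of 0.65 against -0.32. Of these 4, mmu-miR-214 was detected on only 6 arrays, at a mean signal of 17.5. The others were mmu-miR-199 entries, which the study had reported as higher on these same arrays. mmu-miR-145 and mmu-miR-10b of this list were not detected on any array. The brightest members, mmu-miR-125b-5p and mmu-miR-199b, differed by -0.07 and 0.74 (limma, adjusted p = 0.740 and 0.0118). The summed shares of the endothelial list, 1.40% to 1.62% against 1.29% to 1.46%, and of the erythroid list, 3.20% to 7.73% against 3.37% to 7.44%, overlapped between CCL4 and olive oil, and no member was called over all weeks. In the endothelial list mmu-miR-126-3p differed by -0.40 and mmu-miR-126-5p by -0.28, and in the erythroid list mmu-miR-451 by -0.56 and mmu-miR-144 by -0.42. At 4 weeks all 3 erythroid miRNAs were called lower, mmu-miR-144 at -1.43, mmu-miR-451 at -1.35 and mmu-miR-486 at -1.31 (limma, adjusted p = 2.40e-04, 5.01e-04 and 7.67e-04), where 33.1% of all tested miRNAs were called lower, and the difference of mmu-miR-144 was also called between the weeks (interaction, adjusted p = 0.00904). The erythroid values of 4 weeks depend on the scale. On it the median log2 difference of the 133 tested miRNAs at 4 weeks was -0.50, against 0.39 without scaling. The summed erythroid share on the CCL4 array of 4 weeks was 5.16%, inside the range with olive oil. Of the 5 biliary epithelial miRNAs 3 were never detected. Of the others, mmu-miR-200b was called higher at 0.45 (limma, adjusted p = 0.0291) while mmu-miR-200a differed by 0.25 (adjusted p = 0.192).

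Several other miRNAs that have been linked to fibrosis were called between the treatments. Among 13 miRNAs described as profibrotic or as high in activated stellate cells, 10 were tested, 6 were called higher and 1 lower, with a median log2 difference of 0.65. Of all 133 tested miRNAs 13.5% were called higher and 35.3% lower, with a median of -0.32. Those called higher were mmu-miR-199b* at 1.46, mmu-miR-34a at 1.13, mmu-miR-214 at 1.00, mmu-miR-31 at 0.86, mmu-miR-199b at 0.74 and mmu-miR-199a-5p at 0.55 (limma, adjusted p between 2.15e-04 and 0.0209). All but mmu-miR-214 were reported as higher with CCL4 by the study on these same arrays. The list was chosen with this known, so its count is a description. The mmu-miR-199 entries and mmu-miR-214 are also those called higher in the mesenchymal list. mmu-miR-34a is a target of p53, and mmu-miR-199 and mmu-miR-214 come from transcripts of mesenchymal cells. mmu-miR-23b, with the highest mean signal of this list, was called lower at -0.48 (adjusted p = 0.0232). On the scale set by the miRNAs that every array detected, 7 were called higher and none lower, against 15% and 6.02% of all. These miRNAs were dim beside mmu-miR-21, with a summed share of 1.64% to 1.99% with CCL4 and 0.958% to 1.12% with olive oil.

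Among 13 miRNAs described as antifibrotic, 11 were tested, 8 were called lower and none higher, with a median log2 difference of -0.56, against 35.3% lower and 13.5% higher among all tested miRNAs. The miR-29 family, which targets collagen mRNAs, had 3 members called lower, mmu-miR-29a at -0.68, mmu-miR-29b at -0.60 and mmu-miR-29c at -0.89 (limma, adjusted p = 0.0135, 0.0209 and 0.0135). The others were mmu-miR-122, mmu-miR-30a, mmu-miR-30c, mmu-miR-146a and mmu-miR-101a, at -0.78, -0.53, -0.56, -0.87 and -0.56. On the scale set by the miRNAs that every array detected 4 were called lower, against 6.02% of all, and without scaling the median was 0.11, so the sign of this list turned with the scaling. Members of the list overlap with the hepatocyte and leukocyte lists.

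The 5 miRNAs with the profile most like mmu-miR-21 were chosen on the same 8 arrays, so their differences between the treatments are a description. Likeness was the root mean square difference over the 8 arrays of scaled log2 levels, each centred on its own mean, among the 112 other miRNAs detected on all arrays, whose median was 0.33. The 5 closest were mmu-miR-23a at 0.07, mmu-miR-690 at 0.10, and mmu-miR-20a, mmu-miR-652 and mmu-miR-500 at 0.11, 0.11 and 0.12. For mmu-miR-23a the mean signal was 389 and the log2 difference over all weeks -0.10 (limma, adjusted p = 0.620), and for the other 4 it was between -0.23 and -0.02 (adjusted p between 0.215 and 0.886). In mmu-miR-21 and in all 5, the first CCL4 array of 6 weeks was the lowest of the 8 arrays. The arrays of a profile share their scale, so a profile holds the error of that scale too.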

How the data were processed

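Per the file headers, the authors' intensity values came from Feature Extraction 10.5.1.1, which removed the background and gave a total signal per miRNA. The methods name another version and scanner. No scaling between arrays had been applied. The deposited processed table held log2 values that equalled log2 of these signals, with signals under 1 set to 1, to within 1.107e-06 over 4536 values, and the median of each of its columns was 0.

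Signals were divided by the array's 75th percentile of 567 mouse miRNAs, floored at 0.01 and taken to log2; the methods state the floor first, which was run as an alternative. The 133 miRNAs detected on at least 3 arrays were fitted with limma 3.58.1 in R 4.3.3 (week and treatment; a mean for each group for single weeks and the interaction, with 2 residual degrees of freedom), with Benjamini-Hochberg adjustment and a threshold of 0.05. Single measures used exact permutation tests over 56 splits (SciPy 1.17.1). Likeness and named miRNAs followed a rule: mmu-miR-21 and its strand and seed relatives, mmu-miR-122, those brighter than or next to it in mean rank, the 5 most alike, and of each list the 2 brightest members and all called. The comparison with the 20 brightest was chosen after the values were seen. Alternatives covered the scaling, the floor, the background, the filter on detection, the variance, the week and replicate terms, the denominator of the share and leaving out each array. The members and lists were chosen with earlier results of these data known. Signals are of 8 arrays on 1 slide and 1 scan, and their number limits the precision. The human biopsies and cell experiments were not analysed here.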

Additional observations from a re-analysis of the deposited data

Results flagged for a closer look

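Within the 5 CCL4 arrays, the array of 4 weeks lay apart from the other 4 by more than the 95% critical value of Dixon's test in 3 of 5 measures of mmu-miR-21. Its share of the summed signal was the highest at 19.2%, its log2 ratio to mmu-miR-122 was the highest at -0.20, and the ratio of its 2 probes was the lowest at 3.15. The gap to the nearest other array was 0.892, 0.883 and 0.815 of the whole range. Chance alone marks about 1 group in 20, the 3 measures come from the same array, and it is the only CCL4 array of its week. On that array 158 miRNAs were detected, against 121 to 145 on the other CCL4 arrays, the leukocyte miRNAs held 1.68% of the signal, and their part in these values was not tested.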

How the results depend on the processing

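Over all weeks the log2 difference of mmu-miR-21 was -0.08, and it turned to 0.12 with a percentile of only the miRNAs that every array detected, 0.11 with quantile normalization, 0.58 without scaling and with the processed table, 0.49 with normexp, and, in alternatives chosen after seeing the data, 0.35 with 5 control features, 0.14 with the mean log2 signal and 0.57 with cyclic loess. The processed table, with limma's adjusted p = 0.0429, was the only one of these to pass. At 4 weeks the difference of 0.09 passed with quantile normalization (0.39), the sum of spot signals (0.40), the mean log2 signal (0.46) and cyclic loess (1.22). At 6 weeks the difference of -0.24 passed with the sum of spot signals (-0.47), where 83 of the 133 miRNAs were called lower. It turned to 0.22 with the percentile over detected miRNAs, 0.34 without scaling and with the processed table, 0.24 with normexp, 0.27 with control features, 0.071 with the mean log2 signal and 0.37 with cyclic loess. At 8 weeks -0.06 turned to 0.53 without scaling and with the processed table, 0.069 with the sum of spot signals, 0.40 with normexp, 0.16 with control features and 0.28 with cyclic loess. The adjusted p of the interaction, 0.882, fell to 0.030 with quantile normalization and 0.0308 with the sum of spot signals. That test was passed by 13 and 74 of the 133 miRNAs in the same order. Under quantile normalization the values of mmu-miR-21 follow its rank alone, which was 2nd on the CCL4 array of 4 weeks and 3rd on the others. The CCL4 pairs of 6 and 8 weeks then had equal values, so what it passed there rests on 1 array. Otherwise the cause was not tested. Counts of miRNAs called over all weeks moved too, from 18 higher and 47 lower to 20 and 69 with the median of the detected miRNAs as scale, 12 and 18 with quantile normalization, 34 and 0 without scaling, 45 and 0 with the processed table, 8 and 0 with normexp, 20 and 8 with the percentile over detected miRNAs, 26 and 1 with control features, 11 and 25 with the sum of spot signals, 23 and 19 with cyclic loess, 11 and 16 without the week term, and 5 and 0 without a filter on detection. They were 13 and 7 without either array of 4 weeks, 14 and 30 with the first of the 6-week CCL4 arrays left out, 8 and 5 with the 6-week control left out, and 11 and 60 with the 8-week control left out.

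Leaving out an array gave -0.15 to 0.0033 over all weeks, where the positive value came without the olive oil array of 6 weeks. At 4 weeks the value is fixed at 0.09, since no array of that week can be left out. The range was -0.40 to -0.07 at 6 weeks and -0.09 to -0.04 at 8 weeks. It was 0.42 to 0.72 for the unscaled log2 signal and 1.74 to 3.73 percentage points for the share. For the rank it was -0.25 to 0, and for the log2 ratio to mmu-miR-122 0.40 to 0.68. With the replicate number as a block the difference over all weeks was -0.13 (limma, adjusted p = 0.511). The numbers are not stated to pair arrays. The methods' test, without week and unadjusted, gave -0.12. The share, the ratio and the unscaled signal kept their direction under all alternatives run. Permuted within weeks (18 splits), the exact test cannot give a p under 0.111, which is what the share, the ratio and the unscaled signal (a log2 difference of 0.62) gave.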
